A study of Mus musculus with 8 samples.

Results

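The 172 genes described here are those that were under 1 FPKM in every library of the c-Src-proficient mammary tumor lines m5567 and m8905 and at 1 FPKM or more in every library of the c-Src-deficient lines m4447 and m9327. They were selected on these RNA-Seq levels, out of 39993 genes listed, of which they make up 0.430%. FPKM corrects the fragments assigned to a gene for its length and for the size of the library. The difference between the genotypes is therefore set by the selection, and it is given below as a description without a test.

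All 4 cell lines come from the MMTV-NIC model in strain FVB/N, in which the mouse mammary tumor virus promoter directs a single transcript encoding oncogenic ErbB2 and Cre recombinase to mammary epithelium. Lines m5567 and m8905 have the genotype MMTV-NIC/c-Src WT/WT (NIC/c-Src+/+, c-Src-proficient), and lines m4447 and m9327 have the genotype MMTV-NIC/c-Src LoxP/LoxP (NIC/c-SrcL/L, c-Src-deficient), so ErbB2 and Cre are shared by all 4 lines and the labelled genotypes differ in the Src alleles. Every line was grown in the same medium with serum, EGF, hydrocortisone, insulin and pituitary extract, was used at passages 10 to 15, and was sequenced in biological duplicate, which gave 8 libraries. Each line is a separate isolate grown out of a mammary tumor, so within a line its own features and those of the genotype cannot be told apart, and there were 2 lines per genotype. Loss of Src, ErbB2 expression and epithelial identity were not analysed here, because the deposited identifiers could not be paired with gene names (0 of 39993 found in the reference tables used).

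c-Src is a cytoplasmic tyrosine kinase that acts downstream of ErbB2 and other receptor tyrosine kinases. The study that produced these libraries used them to look for regulators of genes that change with loss of c-Src, and followed up Polycomb Repressor Complex 2 (PRC2), the enzyme complex that places H3K27me3, a histone mark found at silent genes. Genes held silent by PRC2 have little or no mRNA and can become transcribed when the mark is lost, and for this reason genes passing from a very low to a measurable level in c-Src-deficient cells are of interest in this model. The study itself described the release of protein-coding targets of PRC2 in the c-Src-deficient lines as limited. It found most H3K27me3 peaks of the c-Src-proficient lines outside genes and promoters. Whether any of the 172 genes carried H3K27me3 was not analysed here.

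The libraries were of similar depth. The totals used as divisors, solved from the deposited values, ran from 14069716 to 17773742 reads, so that 1 read on a gene of 1 kb was worth 0.0563 to 0.0711 FPKM. Between 11131 and 11539 genes per library reached 1 FPKM.

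The 172 genes were under 1 FPKM in the c-Src-proficient lines by selection and mostly at a few FPKM in the c-Src-deficient lines. Their median level was 0.217 and 0.245 FPKM in the duplicates of m5567, and 0.280 and 0.317 FPKM in those of m8905. In m4447 it was 3.31 and 3.38 FPKM, and in m9327 it was 2.56 and 2.48 FPKM. The medians of the line m4447 libraries thus lay above those of m9327, and the duplicates of each line lay close together. In these bulk libraries a change in the number of cells that transcribe a gene and a change in its mRNA per cell cannot be told apart.

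**Figure D1:**
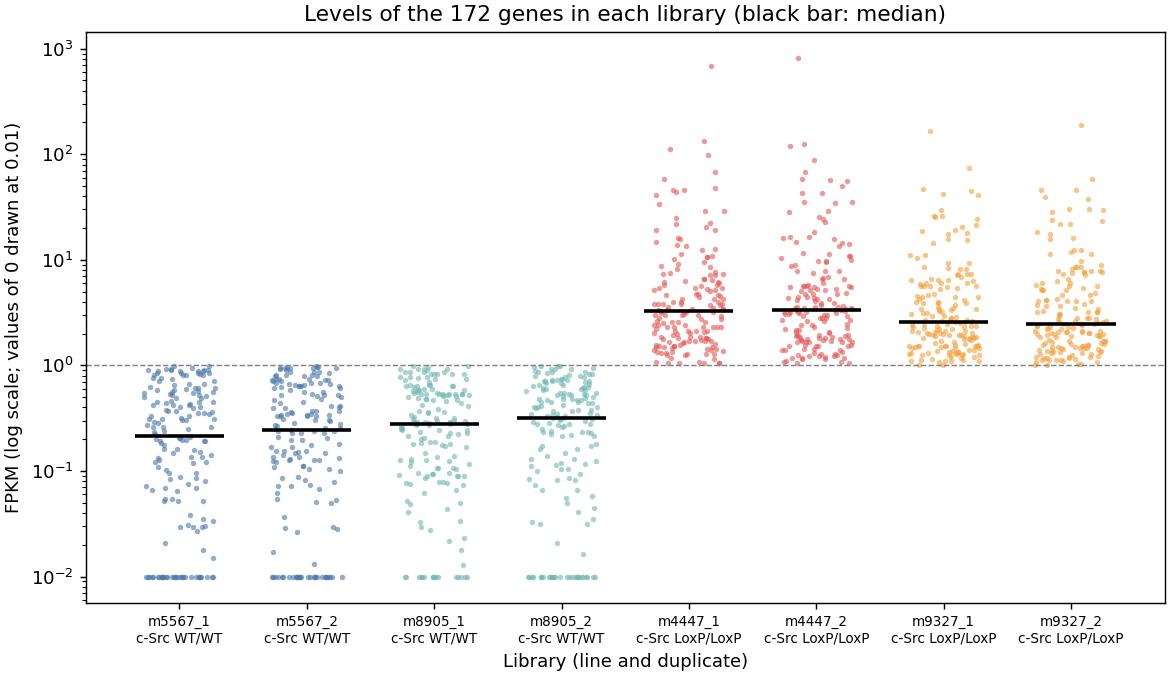
FPKM of the 172 genes (log scale) in each of the 8 libraries; each point is a gene, the black bars are medians, values of 0 are drawn at 0.01 and the dashed line marks the selection level of 1 FPKM. The medians rise from 0.217 to 0.317 FPKM in the c-Src-proficient libraries to 2.48 to 3.38 FPKM in the c-Src-deficient libraries, and the upper tail is longest in m4447, where the highest gene reaches 813.1 FPKM.

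As a share of all reads, the 172 genes took 0.0138% and 0.0145% of the m5567 libraries and 0.0142% and 0.0146% of the m8905 libraries. They took 0.326% and 0.366% of the m4447 libraries, and 0.174% and 0.172% of the m9327 libraries. Part of the excess in m4447 came from MGP_FVBNJ_G0027273, the gene with the highest mean FPKM over the c-Src-deficient libraries. It held 26.8% and 28.5% of the reads on the 172 genes in m4447 and 5.48% and 3.41% in m9327. Without this gene the shares were 0.238% and 0.262% in m4447 and 0.164% and 0.166% in m9327, so the order of the lines remained. In m9327 it was not the most abundant: MGP_FVBNJ_G0027307 had 2089 and 2070 reads there, against its 1626 and 876, and was kept in these shares.

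A few genes carried most of the signal. The highest gene accounted for 23.0% of the summed mean FPKM of the c-Src-deficient libraries, the highest 10 for 51.7% and the highest 20 for 65.2%. These shares pool both lines, and the highest gene held far less of the reads in m9327 than in m4447, as given above. At the other end, 46 genes had a mean under 2 FPKM in the c-Src-deficient libraries, 126 had 2 FPKM or more, 56 had 5 FPKM or more, 28 had 10 FPKM or more and 5 had 50 FPKM or more. Thus the typical gene selected this way was expressed at a low level in the c-Src-deficient lines, and abundant transcripts were the exception.

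Ranked by mean FPKM in the c-Src-deficient libraries, the gene at rank 1 was MGP_FVBNJ_G0027273. It stood at 0.205 and 0.791 FPKM in m5567 and 0.835 and 0.666 FPKM in m8905, against 680.6 and 813.1 FPKM in m4447 and 74.3 and 45.8 FPKM in m9327. Its lowest c-Src-deficient library was 54.8-fold above its highest c-Src-proficient library. Even so, the level in m4447 was far above that in m9327, and the duplicates of the lines did not overlap.

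The gene at rank 2 was MGP_FVBNJ_G0027307, which showed the opposite order of the lines. It had 0.361 and 0.0869 FPKM in m5567, was listed at 0 in both m8905 libraries, reached 2.33 and 2.07 FPKM in m4447 and rose to 167.9 and 190.1 FPKM in m9327. Only 28 and 26 reads supported its level in m4447, against 2089 and 2070 reads in m9327. It therefore met the selection in m4447 by a small margin and in m9327 by a wide one.

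More even between these lines was the gene at rank 3, at 112.9 and 124.3 FPKM in m4447 and 46.7 and 46.1 FPKM in m9327, against 0.234, 0.150, 0.468 and 0.929 FPKM in the c-Src-proficient libraries. Similar values were found for the gene at rank 4, at 98.6 and 118.8 FPKM in m4447 and 42.1 and 37.5 FPKM in m9327, with no c-Src-proficient library above 0.543 FPKM. Closest to a common level among the highest 20 was the gene at rank 12, at 29.0 and 34.6 FPKM in m4447 and 25.4 and 23.6 FPKM in m9327. In all 3 of these genes both m4447 libraries were above both m9327 libraries.

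**Figure D2:**
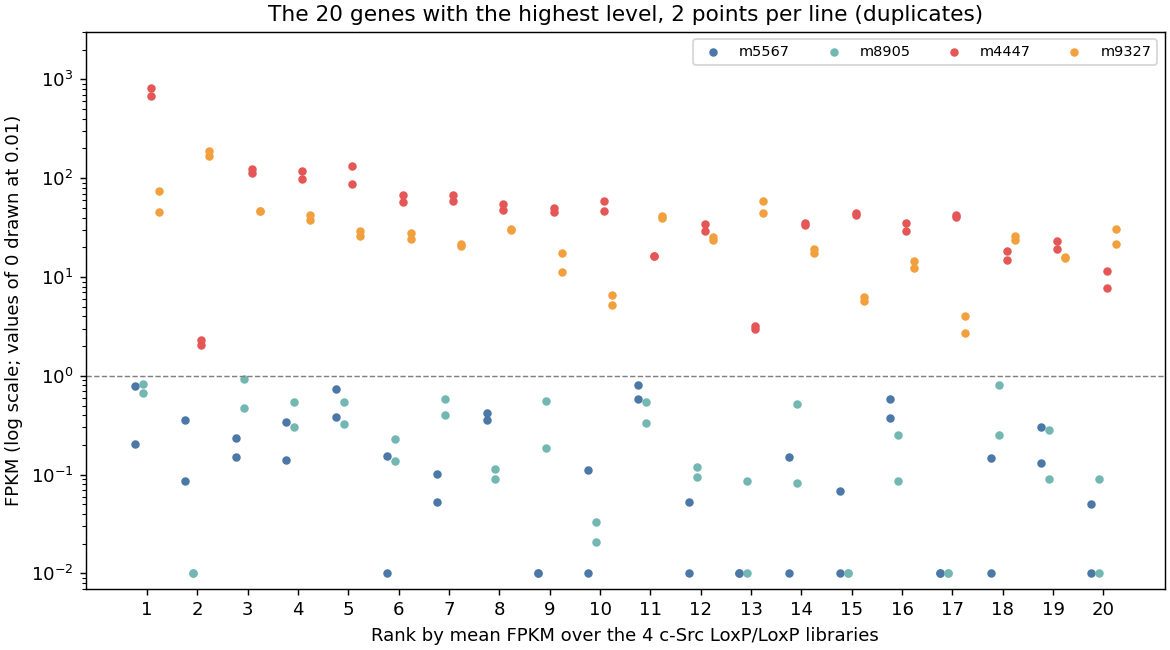
FPKM (log scale) of the 20 genes with the highest mean level in the c-Src-deficient libraries, ordered by rank, with 2 points per line for the duplicates; values of 0 are drawn at 0.01 and the dashed line marks 1 FPKM. Duplicates of m4447 and m9327 lie close together while the lines stand apart, with 15 of the 20 genes called higher in m4447 and 5 in m9327, where 19.0% and 28.8% of all genes at 10 FPKM or more in these lines were called.

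The gap between the genotypes was measured as the lowest c-Src-deficient library over the highest c-Src-proficient library. Among the 168 genes with at least 1 read in a c-Src-proficient library, this ratio ran from 1.06 to 511, with a median of 4.52 and a middle range (quartiles) of 2.16 to 17.6. The ratio was 2 or more in 137 of the 172 genes, 10 or more in 61 and 100 or more in 8, counting the 4 genes without c-Src-proficient reads, and it was under 2 in 35. For these 35 genes the genotypes lay close in at least 1 library of each, although the step could be larger in a single line.

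The very large ratios rested on few reads in the c-Src-proficient lines. Of the 688 c-Src-proficient values of the 172 genes, 266 came from 3 reads or fewer and 103 from 0 reads. Chosen by reads rather than by ratio, a set also 35 in number had 3 reads or fewer in all 4 c-Src-proficient libraries, and in 74 genes all 4 had more than 3. Most of the selected genes thus had some reads assigned in the c-Src-proficient lines: 137 of 172 had more than 3 reads in at least 1 library. Overlapping, antisense or near-identical genes may share reads, so a few reads do not by themselves show transcription of the gene.

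In the c-Src-deficient lines the read support was firmer, with a median of 61 reads in the lowest library of a gene and 10 reads or more in every library for 166 genes. The other 6 genes had fewer than 10 reads in at least 1 c-Src-deficient library. Of the 172 genes, 3 were shorter than 300 bp, where a few reads suffice for 1 FPKM.

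The largest ratio of the lowest to the highest library among the 168 genes, 511, belonged to the gene at rank 21, at 0.0272, 0.0262, 0.0233 and 0 FPKM in the c-Src-proficient libraries, 13.9 and 14.8 FPKM in m4447 and 17.9 and 21.9 FPKM in m9327. It had 3 reads over the 4 c-Src-proficient libraries and 2703 over the 4 c-Src-deficient libraries, a ratio of summed reads of 861 after allowing for the library totals, with a 95% exact counting interval of 294 to 4176. The interval covers counting error only. Unlike in most of the highest 20, both m9327 libraries were above both m4447 libraries.

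No read was counted in any c-Src-proficient library for 4 genes, those at ranks 17, 93, 113 and 141. Against a floor of 3 reads over the group, their levels pooled over the 4 c-Src-deficient libraries were at least 331-fold, 81.2-fold, 4.78-fold and 3.18-fold higher, in that order. These bounds hold for the pooled libraries and not for each line. The gene at rank 17 had 461 and 503 reads in m4447 and 47 and 28 in m9327. At rank 93 there were 45 and 31 reads in m4447 and 97 and 82 in m9327. The first of them, MGP_FVBNJ_G0032661, reached 40.7 and 42.6 FPKM in m4447 and 4.01 and 2.73 FPKM in m9327. The genes at ranks 113 and 141 were 95 and 89 bp long and stayed between 1.22 and 3.82 FPKM and between 1.31 and 2.04 FPKM, so for them the absence of reads limits the level in the c-Src-proficient lines only weakly.

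**Figure D3:**
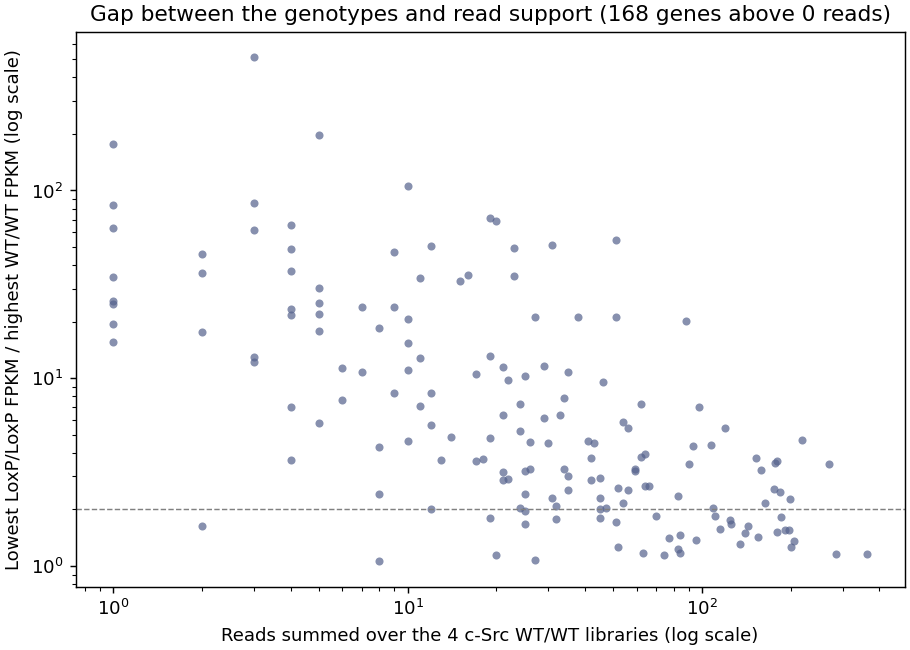
Ratio of the lowest c-Src-deficient to the highest c-Src-proficient library (log scale) against the reads summed over the 4 c-Src-proficient libraries (log scale) for the 168 genes with at least 1 such read; each point is a gene and the dashed line marks a ratio of 2. Ratios run from 1.06 to 511, and the highest of them lie at the left, where the c-Src-proficient reads are few.

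The selection fixes the direction of the difference between the genotypes. Between the c-Src-deficient lines it sets no direction, though it holds both at 1 FPKM or more, and their difference was tested. This floor acted unevenly: alone, the second duplicate of m9327 kept out 44 genes, and the duplicates of m4447 kept out 10 and 9. The comparison between these lines is therefore not free of the selection. The 172 genes were also selected for a difference between lines of unlike genotype. The larger sets they are compared with here were not, and those sets include the 172 genes. The levels were compared on the log2(FPKM + 1) scale with limma across the 12673 genes whose mean over the libraries was 0.5 FPKM or higher, with p-values adjusted by Benjamini-Hochberg and called under 0.05. All 172 genes passed the 0.5 FPKM filter, which follows from their level in the c-Src-deficient libraries. The duplicates of a line are the replicates, so the p-values measure only the spread between duplicates, and they compare these lines rather than genotypes.

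The 172 genes differed between the c-Src-deficient lines in most cases, and more often towards m4447. Of them, 74 (43.0%) were called higher in m4447, against 18.2% of all tested genes and 18.6% of the 10433 genes that reached 1 FPKM in each c-Src-deficient library. In the other direction, 38 (22.1%) were called higher in m9327, against 29.0% of all tested genes and 27.3% of those 10433. No difference was called in 60 genes. The share higher in m4447 was above the background and the share higher in m9327 below it, while the tested genes as a whole leaned towards m9327. The order for m9327 turned with a 2-fold minimum (10.5% against 6.57%) and without the filter on low values (19.8% against 16.7%), and the lean of all tested genes turned under quantile normalization.

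The split was also seen among genes of similar level. Among the 144 of the 172 genes with a mean under 10 FPKM in the c-Src-deficient libraries, 53 (36.8%) were called higher in m4447 and 32 (22.2%) in m9327. The 4003 genes of the same level range gave 18.0% and 24.8%. Among the 28 genes at 10 FPKM or more, 21 were called higher in m4447, 6 in m9327 and 1 in neither, where the 6430 genes of that level gave 19.0% for m4447 and 28.8% for m9327. The lean towards m4447 was thus seen on both sides of 10 FPKM.

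**Figure D4:**
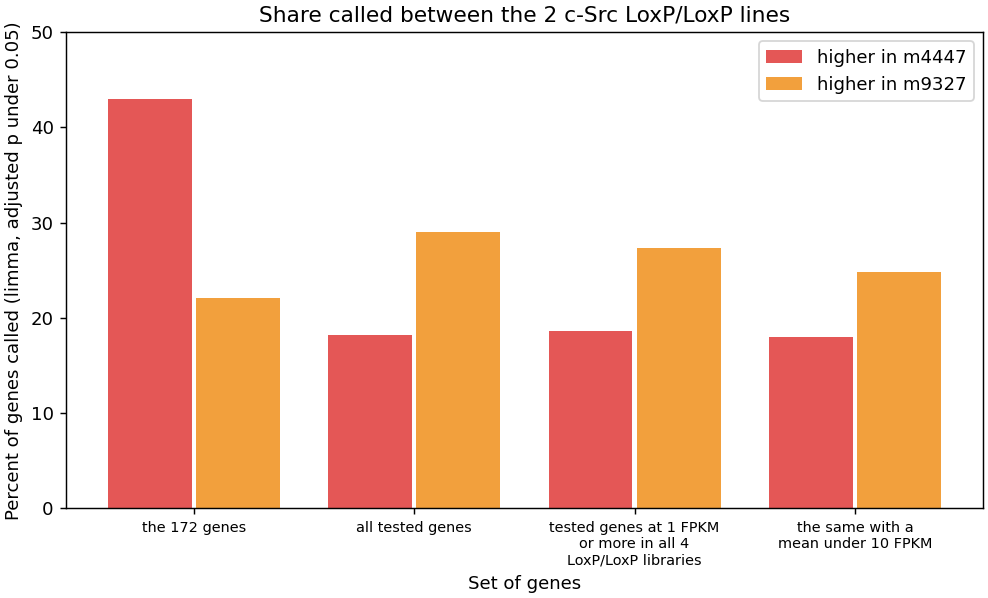
Percent of genes called higher in m4447 or in m9327 (limma, adjusted p under 0.05) among the 172 genes, all 12673 tested genes, the 10433 genes that reached 1 FPKM in each c-Src-deficient library, and the 4003 of these with a mean under 10 FPKM. The bar for m4447 stands at 43.0% in the 172 genes and between 18.0% and 18.6% in the other sets, and the bar for m9327 stands at 22.1% and between 24.8% and 29.0%.

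The differences were also larger than in the comparison sets, which include the 172 genes. Those sets were not selected for a difference between genotypes, so the sizes are given as a description. Whether the selection alone gives larger differences was not tested. The median difference m9327 minus m4447 was -0.24 on the log2(FPKM + 1) scale in the 172 genes, 0.09 over all tested genes and 0.07 over those 10433 genes. Regardless of direction, the median size was 0.58, 0.31 and 0.29, respectively. With a scaling that brought the median of all tested genes near 0, by quantile normalization or by the median ratio, the median of the 172 genes was -0.39 and -0.30. Under these scalings 89 and 80 of the 172 genes were called higher in m4447 and 33 in m9327 in each case. Over all tested genes, the calls for m4447 were then 25.0% and 23.6%, and those for m9327 24.2% and 25.1%.

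In FPKM, the mean of m4447 exceeded that of m9327 in 114 genes and the reverse held in 58. The median ratio of m9327 to m4447 was 0.769 in the 172 genes and 1.05 in the 10433 genes. The difference was 2-fold or more towards m4447 in 49 genes (28.5%, against 5.16% of the 10433 genes) and towards m9327 in 22 (12.8%, against 5.60%). It was 10-fold or more towards m4447 in 4 genes and towards m9327 in 2, counts for which no share over other genes was computed. The remaining 101 genes had line means within 2-fold of each other. This was most of the selected genes, but a smaller share than among the 10433 genes, where only 5.16% and 5.60% lay outside this range. The 10433 genes include the 172 and were not selected for a difference between genotypes, so these shares are a description.

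The duplicates of a line lay close together. The median fold between duplicates was 1.17 in m4447 and 1.16 in m9327, and only 3 genes in m4447 and 0 in m9327 had duplicates over 2-fold apart. Across the 172 genes the line means of m4447 and m9327 had a Spearman correlation of 0.54, against 0.94 across the 10433 genes. These values are across genes that share their libraries and have a restricted range of levels, and they are given as a description.

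**Figure D5:**
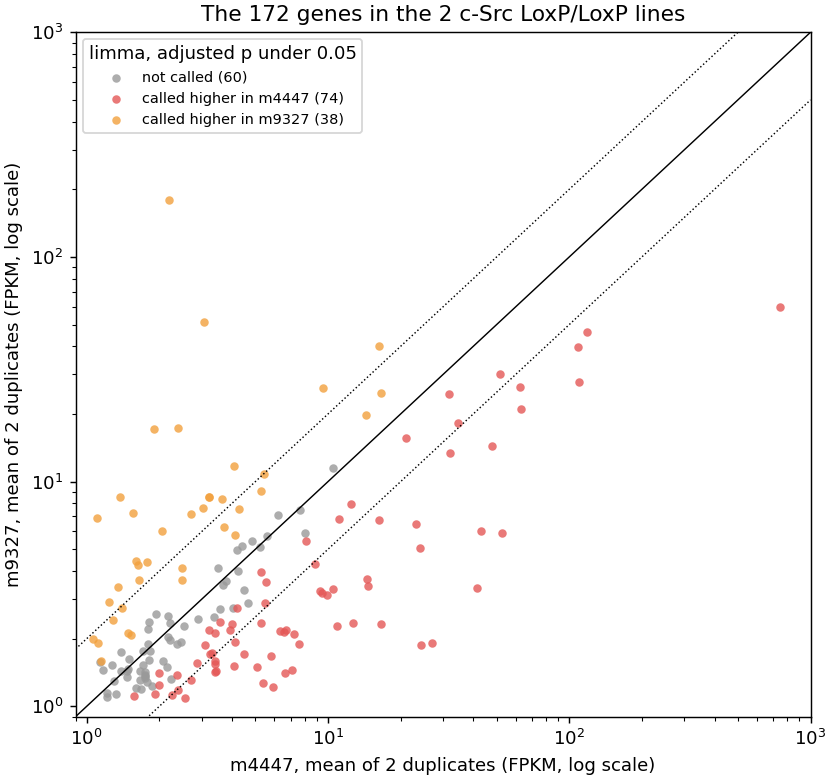
Mean FPKM of the duplicates in m9327 against m4447 for the 172 genes (log scales), coloured by the limma call; the solid line marks equal levels and the dotted lines a 2-fold difference. The 74 genes called higher in m4447 and the 38 called higher in m9327 lie on either side of 60 genes that were not called.

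The 74 genes called higher in m4447 had a median of 6.68 FPKM there and 2.30 FPKM in m9327. Their ratio of line means ran from 1.30 to 14.1, with a median of 2.40. MGP_FVBNJ_G0027273, at 680.6 and 813.1 FPKM in m4447 and 74.3 and 45.8 FPKM in m9327, had the most negative difference on the log2(FPKM + 1) scale, at -3.65 (standard error 0.24, limma adjusted p = 5.56e-06). MGP_FVBNJ_G0032661, the gene with no c-Src-proficient reads at rank 17, followed with a log2 difference of -3.30 (standard error 0.13, limma adjusted p = 4.32e-07). Its mean was 41.6 ± 1.31 FPKM in m4447 and 3.37 ± 0.906 FPKM in m9327 (SD, n = 2 duplicates each), a 12.3-fold difference.

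Several other genes at a high level showed the same order. At rank 10, a gene had 46.2 and 58.8 FPKM in m4447 and 6.55 and 5.21 FPKM in m9327. At rank 15 the levels were 44.1 and 42.5 FPKM in m4447 and 6.30 and 5.73 FPKM in m9327. At rank 24 they were 25.1 and 28.8 FPKM in m4447 and only 2.50 and 1.33 FPKM in m9327, its lowest c-Src-deficient value being 2.02-fold above its highest c-Src-proficient value of 0.659 FPKM. As a ratio of line means in FPKM, its difference of 14.1-fold was larger than the 12.4-fold of MGP_FVBNJ_G0027273 and the 12.3-fold of MGP_FVBNJ_G0032661. For genes such as this, the step was large in m4447 and small in m9327.

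The 38 genes called higher in m9327 had a median of 7.03 FPKM there and 2.29 FPKM in m4447, and their ratio ran from 1.36 to 81.4, with a median of 2.41. MGP_FVBNJ_G0027307, at 167.9 and 190.1 FPKM in m9327 and 2.33 and 2.07 FPKM in m4447, had the most positive difference on the log2(FPKM + 1) scale, at 5.81 (standard error 0.13, limma adjusted p = 2.05e-08). MGP_FVBNJ_G0005632, at rank 13, followed at 3.68 (standard error 0.13, limma adjusted p = 2.04e-07). It had 44.4 and 58.2 FPKM in m9327 and 2.95 and 3.18 FPKM in m4447.

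In the c-Src-proficient libraries MGP_FVBNJ_G0005632 had a single read, in the first duplicate of m8905 (0.0856 FPKM). Against this read, the 1139 reads pooled over the c-Src-deficient libraries gave a ratio of 1088 with a 95% exact counting interval of 195 to 43009. Of these reads, 499 and 572 came from m9327 and only 32 and 36 from m4447. The ratio and its interval therefore describe mainly m9327 and do not hold for m4447 alone. Another gene, at rank 30, had 15.9 and 18.5 FPKM in m9327 and 1.54 and 2.26 FPKM in m4447, where its highest c-Src-proficient library stood at 0.860 FPKM. At rank 59 the levels were 8.52 and 8.50 FPKM in m9327 and 1.50 and 1.26 FPKM in m4447. Here the larger step was in m9327, the mirror image of the genes above.

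The 60 genes called in neither direction were low, with a median of 1.84 FPKM in the c-Src-deficient libraries. Their ratio of m9327 to m4447 ran from 0.593 to 1.40. The highest of them, at rank 27, had 10.1 and 10.9 FPKM in m4447 and 11.2 and 11.7 FPKM in m9327, with 0.301 to 0.479 FPKM in the c-Src-proficient libraries. Similarly, the gene at rank 55 had 4.80 and 5.65 FPKM in m4447 and 4.61 and 5.64 FPKM in m9327. These genes came nearest to a common level in both c-Src-deficient lines, although a difference that misses the threshold does not show equal levels.

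The genes with hardly any c-Src-proficient reads were not those with the lowest level in the c-Src-deficient lines. The 35 genes that had at most 3 reads in each c-Src-proficient library had a median of 3.77 FPKM in the c-Src-deficient libraries, and the other 137 had 3.31 FPKM. They were shorter, with a median length of 1169 bp against 1906 bp. Of the 35, 13 (37.1%) were called higher in m4447 and 14 (40%) in m9327, and of the 137, 61 (44.5%) were called higher in m4447 and 24 (17.5%) in m9327. Over all tested genes these shares were 18.2% and 29.0%, so both sets lay above the share for m4447 and only the 35 genes lay above that for m9327. The difference between the sets was not tested. Length itself was not unusual for the 172 genes, with a median of 1722.5 bp against 1743 bp in the 10433 genes above.

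Within the c-Src-proficient lines the residual levels were low throughout. The mean over the 4 libraries was under 0.1 FPKM in 41 genes, between 0.1 and 0.5 FPKM in 85 and 0.5 FPKM or more in 46. Across the 172 genes the mean c-Src-proficient level and the mean c-Src-deficient level had a Spearman correlation of -0.22, again as a description across genes within a restricted range. A higher residual level did not go with a higher level in the c-Src-deficient lines.

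The c-Src-proficient lines were compared with each other as well, where the selection holds every value under 1 FPKM and so limits the size of any difference on the log2(FPKM + 1) scale. With the same limma fit, 9 (5.23%) were called higher in m8905 and 9 (5.23%) in m5567, against 11.9% and 12.0% of all tested genes. The tested genes under 1 FPKM in all c-Src-proficient libraries, 747 in number and more alike in level, gave 5.09% and 4.15%. The 172 genes passed the 0.5 FPKM filter through their c-Src-deficient libraries and 266 of their 688 c-Src-proficient values rest on 3 reads or fewer, so these counts are given as a description and nothing is read from them. With a pseudocount of 0.1 in place of 1, the calls rose to 30 (17.4%, against 9.94% of all tested genes) and 23 (13.4%, against 10.1%), so their order against all tested genes turned with the scale.

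These calls changed with the settings, and the values of the genes called are listed only as a description. The 9 genes called higher in m8905 had line means of 0.048 to 0.308 FPKM in m5567 and 0.416 to 0.880 FPKM in m8905. The gene at rank 172, at 0.0961 and 0 FPKM in m5567 and 0.824 and 0.937 FPKM in m8905, had the most positive difference (log2 difference 0.84). The 9 genes called higher in m5567 had 0.315 to 0.977 FPKM there and 0 to 0.501 FPKM in m8905. The most negative difference among them was that of the gene at rank 92, at 0.583 and 0.710 FPKM in m5567 and 0.0789 and 0.0332 FPKM in m8905 (log2 difference -0.64).

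Which genes belong to the group depends on where the level is set. Inside the selection, 18 genes had their lowest c-Src-deficient library under 1.1 FPKM, the nearest at 1.002 FPKM, and 28 had their highest c-Src-proficient library at 0.9 FPKM or more, the nearest at 0.995 FPKM. Just outside it, 17 genes met the c-Src-proficient condition but had their lowest c-Src-deficient library between 0.902 and 0.991 FPKM. A further 25 genes met the c-Src-deficient condition but had their highest c-Src-proficient library between 1.0002 and 1.0988 FPKM. The border thus ran through a continuum of levels.

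Genes also passed the level in a single c-Src-deficient line. Of the 39993 genes listed, 27862 were under the same level of 1 FPKM in all c-Src-proficient libraries. Among these, 354 were at or above it in both m4447 libraries, and 349 in both m9327 libraries. The 172 genes are the part that these sets share, 182 genes were reached in m4447 only and 177 in m9327 only. Of the 182, 57 had 1 of the 2 m9327 libraries at 1 FPKM or more, and of the 177, 19 had 1 of the 2 m4447 libraries there. In 115 of the 182 the m9327 line mean was above every c-Src-proficient library, as was the m4447 line mean in 74 of the 177. The word only therefore refers to the level of 1 FPKM.

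The genes reached in m4447 only had a median line mean of 1.75 FPKM in m4447, 0.604 FPKM in m9327 and 0.232 FPKM in the c-Src-proficient libraries. The genes reached in m9327 only had 2.03 FPKM in m9327, 0.319 FPKM in m4447 and 0.208 FPKM in the c-Src-proficient libraries.

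Of the c-Src-deficient libraries, the second duplicate of m9327 restricted the selection most. Alone, it kept out 44 genes that met the condition in the other 7 libraries, against 13 for the first duplicate of m9327, and 10 and 9 for the duplicates of m4447. The median of these 44 genes was 1.20 FPKM in the first duplicate of m9327 and 0.785 FPKM in the second, and 15 of them were over 2-fold lower in the second. Each c-Src-proficient library alone kept out 12 to 18 genes.

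The identifiers of the deposited table are numbered, and 12 of the 172 genes (6.98%) formed 6 pairs with consecutive numbers. Among the other 12501 tested genes, 1.30% had a selected gene as the next or previous number. Whether consecutive numbers mark neighbouring genes is not given in the sources used here, and the sharing of reads between such genes was not tested.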

How the data were processed

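RNA-Seq was performed on poly-A RNA of 4 mouse mammary tumor cell lines, 2 per genotype, each in biological duplicate. Reads with adapter, poly-N or low quality were removed, the remainder were aligned to the FVB/N genome with TopHat2 2.0.12 and Bowtie2 2.2.3 and counted with HTSeq 0.6.1, and the authors deposited FPKM computed from gene length and counts, without a stated scaling between libraries. FPKM were used as deposited. All 8 columns were matched to samples by their labels (0 columns were left unmatched). Strand setting and annotation release are not given in the sources used here, so overlapping, antisense or near-identical genes may share reads. Library totals, gene lengths and the whole reads behind each value were solved from the deposited values with Python 3.11.15, numpy 2.4.6, pandas 2.3.3 and scipy 1.17.1 for all 22673 genes above 0, and the solver was tested on simulated data. Reads are not independent molecules, so intervals and floors cover counting error only.

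Lines were compared with limma 3.58.1 in R 4.3.3 (lmFit, eBayes, no trend or robust option) on log2(FPKM + 1), which understates the change of low genes. The fit had all 8 libraries, 4 lines as groups, and the 12673 genes whose mean over the libraries reached 0.5 FPKM. P-values were adjusted by Benjamini-Hochberg over all of these, with a threshold of 0.05. Without gene names, 2 identifiers with the largest called difference in each direction between m9327 and m4447 were to be named, and other genes are given by rank. Gene lists, sequences and cell type markers need names and were not analysed here. The members and lists were chosen with earlier results of these data known. Alternatives were another pseudocount, filter, scaling, limma option, set of libraries, minimum fold or level, a replicate block, voom on solved reads, and leaving out each library.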

Additional observations from a re-analysis of the deposited data

How the results depend on the processing

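In every alternative fit of m9327 against m4447, the share of the 172 genes called higher in m4447 was above that of all genes tested. The 4 genes named by identifier kept the direction and call of their difference in these fits (the 2-fold minimum was not applied to them). With a filter at a mean of 2 FPKM, which tests 81 of the 172 genes, 45 (55.6%) were called higher in m4447 and 23 (28.4%) in m9327, against 19.5% and 31.1% of all genes tested. A 2-fold minimum left 38 (22.1%) and 18 (10.5%), against 4.46% and 6.57%. Under this minimum and without a filter (34 genes, 19.8% against 16.7%), the share higher in m9327 was above that of all genes tested, and in the other fits below it. With a library of m5567 left out, 72 (41.9%) and 35 (20.3%) were called, against 16.9% and 27.0% of all genes tested. With a library of m8905 left out, 73 (42.4%) and 35 (20.3%) were called, against 17.2% and 27.3%. Leaving out a library of m4447 or m9327 kept both shares on the same side of those of all genes tested. The counts between m8905 and m5567 (9 and 9) were less stable. They were 30 (17.4%, against 9.94% of all genes tested) and 23 (13.4%, against 10.1%) with a pseudocount of 0.1, above that share where the pseudocount of 1 put them below it. Those higher in m8905 were 15 (8.72%, against 13.6%) with only the 4 libraries compared and 18 (10.5%, against 13.8%) with voom on solved reads. Those higher in m5567 were 5 (2.91%, against 12.7%) with an intensity trend and 3 of 81 (3.70%, against 13.6%) with the 2 FPKM filter. With quantile normalization the counts were 6 and 11 (3.49% and 6.4%, against 13.2% and 12.7%). With the median ratio they were 10 and 7 (5.81% and 4.07%, against 13.3% and 12.1%). A 2-fold minimum left 0 limma calls, since values selected under 1 FPKM cannot differ 2-fold on the log2(FPKM + 1) scale. Without it, 26 (15.1%) and 14 (8.14%) genes had an unadjusted p under 0.05, against 17.7% and 18.2% of all genes tested. Leaving out a duplicate of m5567 or m8905 lowered both counts, and the calls over all genes tested fell too. Without either duplicate of m4447 the counts were 14 (8.14%, against 13.3% of all genes tested) and 9 (5.23%, against 13.2%). Without either duplicate of m9327 they were 10 (5.81%, against 11.5%) and 7 (4.07%, against 11.6%). A lone remaining duplicate is assumed to vary like the other lines. The causes of these shifts were not tested. Duplicates with the same number did not deviate together in the lines compared (correlations of 0.063 between m5567 and m8905 and 0.016 between m4447 and m9327). Between the other lines the correlations ran from -0.181 (m8905 and m4447) to 0.030 (m8905 and m9327). No correlation was above 0.063, so duplicates with the same number gave no sign of a pairing. With the duplicate numbers as a replicate block, 73 (42.4%, against 17.4%) were called higher in m4447 and 36 (20.9%, against 27.7%) in m9327. Higher in m8905 and m5567 were 9 (5.23%, against 10.9%) and 6 (3.49%, against 10.9%). The number of genes selected was 170 at a level of 0.5 FPKM, 174 at 2 FPKM, 175 after quantile normalization and 184 after rescaling by the median ratio, of which 85, 77, 161 and 170 were among the 172. It was 181 to 216 with a library left out, the highest without the second duplicate of m9327, and 22 when the NIC/c-Src+/+ libraries had to be under 0.1 FPKM. Depth limits the NIC/c-Src+/+ side most, where 266 of 688 values rest on 3 reads or fewer.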
